A study of Mus musculus with 2 samples.

Results

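The genes described are 3 apolipoproteins (Apoe, Apoc1 and Apoc2), 3 fatty acid-binding proteins (Fabp4, Fabp5 and Fabp7), lipoprotein lipase (Lpl), the fatty acid receptor Cd36 and the lipid droplet protein perilipin 2 (Plin2). They are 9 of the 27998 gene rows in the tables. They were chosen by name after earlier results of these data were known, because Apoe, Apoc1 and Fabp7 were higher and Fabp5 was lower in monocytes after tooth movement, so those values are given as a description. The study applied orthodontic force to the left first molar of male C57/B6 J mice (8 weeks old) and sorted F4/80+CD11b+ cells from the digested alveolar bone. The control group had no force and the OTM group (orthodontic tooth movement, labelled Case) had 7 days of force. The 20 mice of the experiment were divided between these groups, and each group was read as 1 droplet library. How many mice entered each library is not stated in the methods. With 1 library per group, no spread between animals was measured and no p-value is given. Intervals are 95% intervals that cover counting error only.

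Apolipoproteins coat lipoprotein particles and carry cholesterol and triglyceride between cells, and macrophages are a known source of ApoE outside the liver. Lipoprotein lipase splits the triglyceride of these particles, CD36 takes fatty acids and oxidised lipoproteins into the cell, FABPs bind fatty acids in the cytosol, and perilipin 2 coats the droplets in which lipid is stored. Transcription of many of these genes in macrophages is known to respond to the lipid-sensing nuclear receptors LXR and PPAR.

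Apoe, Apoc1 and Apoc2 lie in 1 cluster of genes on the minus strand of chromosome 7 (GRCm38). Apoe is at chr7:19696109-19699188, Apoc1 at chr7:19689481-19692660 and Apoc2 at chr7:19671579-19677941, with a gap of 3.45 kb between the first and the second. Fabp5 (chr3:10012548-10016607, plus strand) and Fabp4 (chr3:10204088-10208576, minus strand) lie 187 kb apart on chromosome 3. Fabp7 is at chr10:57784881-57788450, Lpl at chr8:68880491-68907448, Cd36 at chr5:17781690-17888801 and Plin2 at chr4:86648386-86670060. RefSeq promoter sequences were at hand for 5 of the 9 genes.

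The stretches upstream of Apoe, Fabp7 and Plin2 are shown because the first and the second of these genes were higher in OTM monocyte-like cells and the level of the other differed by less than 2-fold. Each is printed 5′ to 3′ on the strand of the gene and ends at the last base before the annotated gene. Capitals mark matches on either strand to the nuclear receptor motif AGGTCA or to the PU.1 core GAGGAA. The stretches are chr7:19699189-19699438 (minus strand), chr10:57784673-57784880 (plus strand) and chr4:86670061-86670309 (minus strand).
Apoe: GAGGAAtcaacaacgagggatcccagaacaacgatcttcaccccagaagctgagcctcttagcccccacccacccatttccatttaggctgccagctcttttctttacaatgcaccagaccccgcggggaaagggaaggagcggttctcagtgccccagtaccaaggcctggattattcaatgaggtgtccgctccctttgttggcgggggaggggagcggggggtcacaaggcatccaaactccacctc
Fabp7: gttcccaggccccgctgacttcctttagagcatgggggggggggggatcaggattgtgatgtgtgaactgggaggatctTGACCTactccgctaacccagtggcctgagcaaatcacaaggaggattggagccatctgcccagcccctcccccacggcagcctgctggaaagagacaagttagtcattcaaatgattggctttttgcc
Plin2: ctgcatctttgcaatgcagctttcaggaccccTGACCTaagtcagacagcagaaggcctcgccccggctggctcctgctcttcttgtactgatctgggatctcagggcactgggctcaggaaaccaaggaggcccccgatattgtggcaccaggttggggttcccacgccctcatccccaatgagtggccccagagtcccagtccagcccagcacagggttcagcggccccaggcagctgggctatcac
In the 250 bases before the start, AGGTCA occurred 1 time each in Fabp7, Plin2, Apoc2 and Cd36 and was not found in Apoe. The RefSeq start of Cd36 lies inside the gene as given above, so its stretch is not upstream of the whole gene. It was found in 14% of the 32851 mouse promoters of the same length. GAGGAA occurred 1 time in Apoe and in none of the other 4, against 23.3% of all promoters. The letters TTGCNNAA (C/EBP, 9.56% of all promoters) and TGANTCA (AP-1, 6.75%) were not found in any of the 5. No promoter held more than 1 match, so no matches overlap. Fabp7 and Plin2, whose levels differed in OTM to unlike extents, both held AGGTCA, and these matches describe letters only.

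The control table held 2863 barcodes with 14620877 UMIs (unique molecular identifiers, each marking 1 captured RNA molecule), and the OTM table held 2058 barcodes with 16500733 UMIs. A literal reading of the stated filter left 2444 control cells (85.4%) with a median of 3675 UMIs and 1255 OTM cells (61.0%) with a median of 6053. The study states more cells after filtering than either table holds barcodes, so these are not the same sets of cells. The barcodes that the filter left out were deeper, with medians of 8395 UMIs in control and 9717 in OTM. The 2 tables shared 6 cell barcodes. Although the labels name macrophages, most cells had monocyte or neutrophil markers. Clusters were named from fixed marker lists and are called monocyte-like and so on. There were 794 control and 554 OTM monocyte-like cells, 154 and 71 cycling monocyte-like cells, and 292 and 148 cells with high MHC class II. With a minimum of 200 genes per cell as the filter, monocyte-like cells were 658 and 352 and cells with high MHC class II 294 and 537. The OTM library clustered alone did not separate nonclassical monocyte-like and C1q macrophage-like cells, and 1 of its neutrophil-like clusters also held lymphoid markers. Clusters of both libraries together were therefore used for nonclassical monocyte-like cells (156 control and 62 OTM), C1q macrophage-like cells (52 and 17) and neutrophil-like cells (830 and 328). The 9 genes and the other lipid genes below were left out of the genes used for clustering.

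Levels are given in CPM, the UMIs of a gene summed over the cells of a class and scaled to the total UMIs of that class. They were not compared between genes. In monocyte-like cells, 3 of the 9 genes were at least 2-fold higher in OTM (Apoe, Apoc1 and Fabp7) and 3 were at least 2-fold lower (Fabp4, Fabp5 and Lpl). Over all 6349 genes with at least 50 UMIs in this class, 2.66% were 2-fold higher and 5.62% were 2-fold lower. The genes were chosen on this contrast, so nothing is read from the difference to these shares. The median log2 ratio was -0.34 over the 9 genes and -0.13 over all genes. Ratios under other settings are given with 0.5 UMIs added to both counts. The barcode filter moved some ratios by more than 1.5-fold, to 9.19 for Apoc1 and 0.226 for Fabp5 with a minimum of 200 genes per cell in its place and to 16.4 for Fabp7 with all barcodes.

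**Figure D1:**
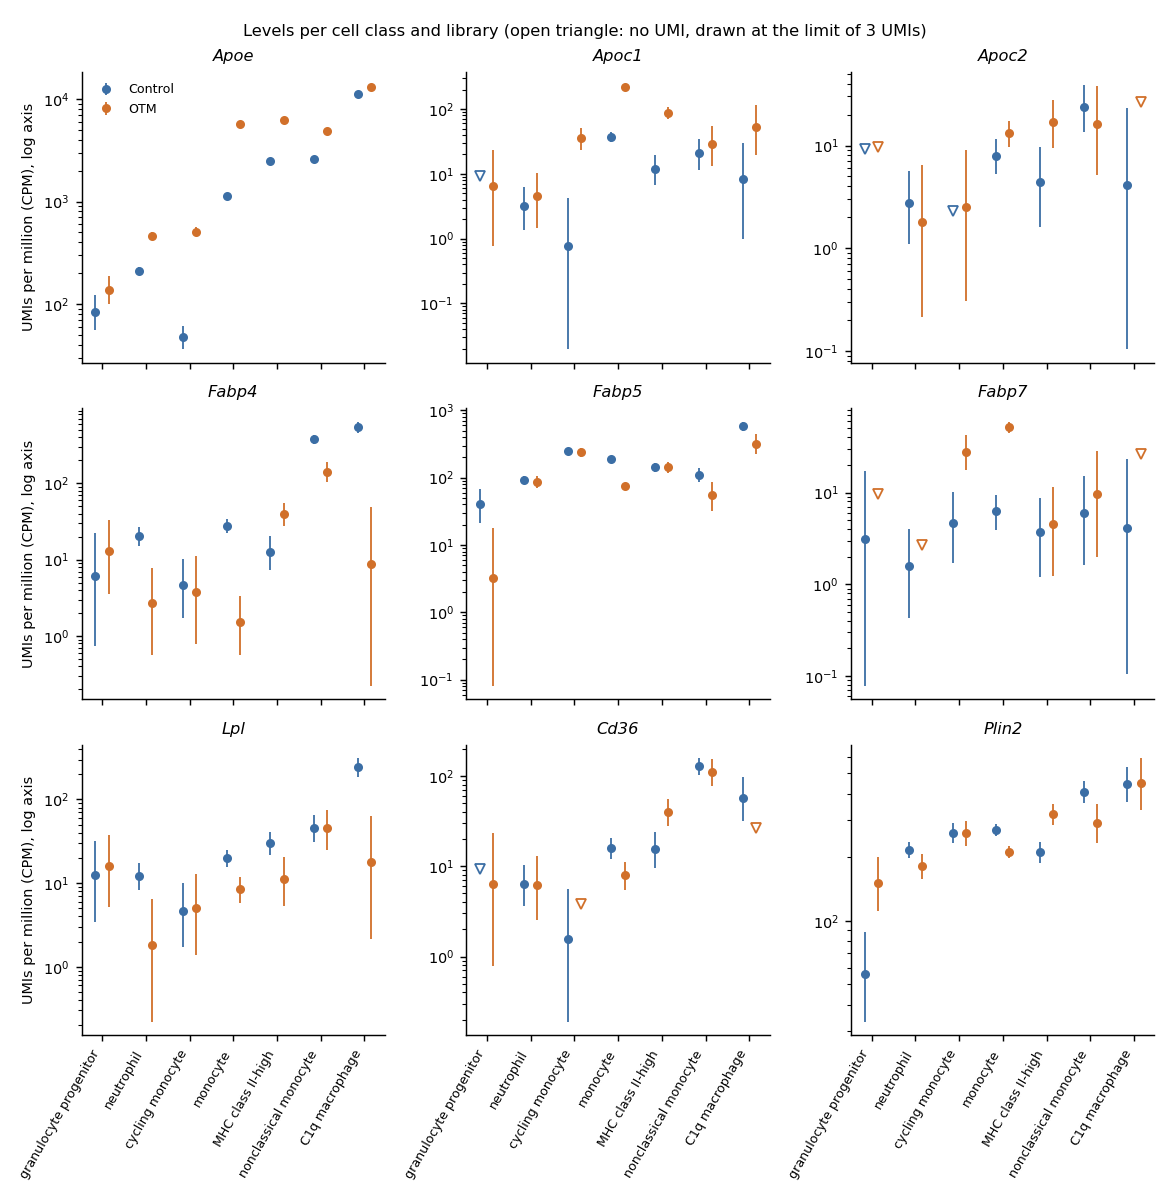
Level of each gene (CPM, log axis) in 7 cell classes of the control (blue) and OTM (orange) library, with 95% counting intervals as bars. Open triangles mark classes with no UMI and stand at the level of 3 UMIs. Apoe was lowest in the cycling monocyte-like cells of the control library and highest in C1q macrophage-like cells of both libraries.

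Apoe encodes the apolipoprotein through which cells take up lipoprotein remnants. Its level in monocyte-like cells was 1144 CPM in the control library (4024 UMIs) and 5739 CPM in the OTM library (22365 UMIs), a ratio of 5.02 (interval 4.85 to 5.19). The 2 control clusters of these cells were at 1241 and 990.5 CPM and the 2 OTM clusters at 4859 and 6518 CPM. Clusters of 1 library are not replicates, so nothing is read from their order. The difference between the libraries was spread over the cells. The median monocyte-like cell had 1 Apoe UMI (341 CPM) in the control library and 27 (4001 CPM) in the OTM library. The highest cells had 80 and 259 UMIs. Cells without an Apoe UMI made up 38.8% of the control cells and 7.94% of the OTM cells, and the top 5% of cells held 32.9% and 19.9% of the Apoe UMIs.

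OTM monocyte-like cells held more UMIs than control ones (medians of 7269 and 4099), and sequencing depth and RNA per cell cannot be told apart here. After each cell was thinned to 2000 UMIs, which left out 24 control cells, an Apoe UMI was found in 50.3% of control cells (interval 46.7 to 53.9) and in 82.7% of OTM cells (79.3 to 85.7). Unthinned, these shares were 61.2% and 92.1%. Neutrophil-like cells, taken for comparison, had an Apoe UMI in 17.5% of control cells and 30.5% of OTM cells after the same thinning, with median depths of 2610 and 3020 UMIs and 131 control cells left out. The monocyte-like shares were above these neutrophil-like shares in both libraries. Shares were 8.44% (control) and 36.6% (OTM) in cycling monocyte-like cells and 8.33% and 23.9% in granulocyte progenitor-like cells. Neutrophil-like cells were thus not the lowest class and are not a measure of background. Free RNA in the droplets was not removed, and its part in the levels was not tested.

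**Figure D2:**
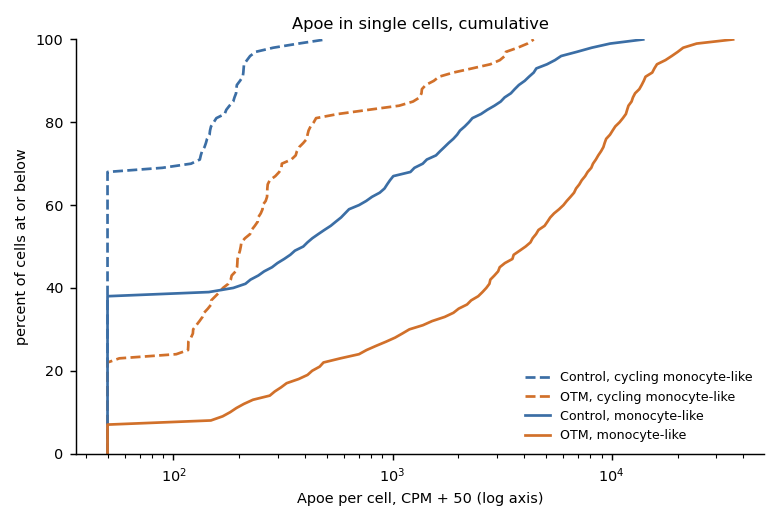
Percent of cells (vertical axis) at or below a given Apoe level (CPM + 50 in single cells, log axis). Solid lines are monocyte-like and broken lines cycling monocyte-like cells, in blue for control and orange for OTM. The OTM curve of monocyte-like cells lies to the right of the control curve, and the medians over all cells, those without a UMI included, are 4001 and 341 CPM.

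Apoc1 encodes a small apolipoprotein that slows the uptake of lipoprotein remnants. It was at 37.2 CPM (131 UMIs) in control and 219 CPM (852 UMIs) in OTM monocyte-like cells, a ratio of 5.87 (4.88 to 7.11). An Apoc1 UMI was found in 5.84% of control and 24.7% of OTM cells thinned to 2000 UMIs, against 0.572% and 0.915% in neutrophil-like cells (unthinned 9.45% and 42.4% of monocyte-like cells). The control clusters were at 29.6 and 49.5 CPM and the OTM clusters at 158 and 272 CPM.

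Apoc2 encodes the cofactor that lipoprotein lipase needs. It was at 7.96 CPM (28 UMIs) in the control and 13.1 CPM (51 UMIs) in the OTM library, a ratio of 1.64 (1.02 to 2.71). The tables held a second row under this symbol, for a readthrough gene (Gm44805), and that row had no UMI in these cells. The exons of the readthrough gene cover 79.5% of the exon bases of Apoc2, and 98.3% of the 98-base windows in its last 400 bases are identical. Reads from this stretch fit both genes, so the level of Apoc2 is uncertain. None of the windows at the ends of the other 8 genes was found in another annotated transcript.

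Genes beside the apolipoproteins on chromosome 7 were set beside them. Apoc4, between Apoc1 and Apoc2, had 0 UMIs in control and 11 in OTM monocyte-like cells, too few for a count. With no control UMI its ratio has no upper limit, and the lower limit of the interval was 2.265. The readthrough gene Gm44805 also overlaps Apoc4, and whether reads of Apoc4 fit both genes was not tested. Tomm40, next to Apoe on the other side, had a ratio of 1.19 (0.831 to 1.72), and Clptm1, next to Apoc2, had a ratio of 1.18 (0.887 to 1.58). Tomm40 encodes the pore through which proteins enter mitochondria. The intervals of both ratios include 1. The intervals of Apoe, Apoc1 and Apoc2 lie above 1, that of Apoc2 only just.

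Fabp7 encodes the brain-type fatty acid-binding protein, best known from glia. It was at 6.26 CPM (22 UMIs) in control and 51.8 CPM (202 UMIs) in OTM monocyte-like cells, a ratio of 8.28 (5.32 to 13.5). A UMI was found in 0.909% of control and 8.48% of OTM cells thinned to 2000 UMIs, and in 0 of 699 control and 0 of 328 OTM neutrophil-like cells, which allows shares of up to 0.429% and 0.915%. Unthinned, the monocyte-like shares were 2.64% and 22.7%. The OTM clusters differed from each other, at 25.1 CPM and, in the cluster led by the acute-phase gene Saa3, 75.5 CPM. The control clusters were at 5.09 and 8.12 CPM. Saa3 also led a control cluster, the one with 5.09 CPM.

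Other glial markers did not accompany Fabp7. Of 6 Schwann or glial markers, 1 had a UMI in control and 2 in OTM monocyte-like cells, with a summed level of 20.5 and 4.62 CPM, and Sox10, S100b and Gfap were at 0 in both. The adipocyte markers, of which 2 of 7 had a UMI in each library, summed to 2.84 and 0.513 CPM. The endothelial markers (3 and 4 of 7 with a UMI) summed to 5.4 and 7.18 CPM. The C1q macrophage markers (13 and 12 of 13 with a UMI) summed to 348 and 376 CPM, close to each other in the libraries, and the nonclassical monocyte markers (11 of 11 in both) summed to 828 and 463 CPM. The MHC class II-high markers (10 of 10 in both) summed to 1174 and 572 CPM and the granulocyte progenitor markers (6 of 6 in both) to 171 and 338 CPM. Erythroid markers (6 and 5 of 7) summed to 356 and 90.1 CPM and B cell markers (7 and 3 of 7) to 16.2 and 1.54 CPM, and the part of these cells in the results was not tested.

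Fabp5 encodes the epidermal-type binding protein, which is common in macrophages. It was at 186 CPM (655 UMIs) in control and 74.7 CPM (291 UMIs) in OTM monocyte-like cells, which is 2.49-fold lower (2.17 to 2.87). The share of cells with a UMI after thinning was 21.7% in control and 9.57% in OTM, while it was 12.4% and 13.4% in neutrophil-like cells, so the OTM monocyte-like share was not above the neutrophil-like share. Unthinned, the monocyte-like shares were 33.6% and 24.4%. The control clusters were at 204 and 158 CPM and the OTM clusters at 114 and 40.2 CPM. The lowest of the 4 was the OTM cluster led by Saa3, in which Fabp7 was highest. The control cluster led by Saa3 went the other way, with the highest Fabp5 of the 4 (204 CPM) and the lowest Fabp7.

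Fabp4, the adipocyte and macrophage binding protein, was 17.9-fold lower in OTM monocyte-like cells (interval 7.94 to 50), with 27.6 CPM (97 UMIs) in control and 1.54 CPM (6 UMIs) in OTM. This value rested on few cells. Only 28 of the 794 control cells had a UMI, and 1 of them held 51 of the 97. In the clusters of both libraries together this cell lay among the C1q macrophage-like cells. Without the cell with the most UMIs in each library the ratio was 0.107, and with monocyte-like cells taken from the joint clusters it was 0.593, which is no longer 2-fold lower.

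Lpl was 2.35-fold lower in OTM monocyte-like cells (1.53 to 3.67), with 19.9 CPM (70 UMIs) and 8.47 CPM (33 UMIs). In 1 random draw with each cell thinned to 2000 UMIs its ratio was 0.743, which does not pass 2-fold. The mean CPM of single cells, which also gives each cell the same weight, was 21.2 in control and 9.15 in OTM. Cd36 was at 15.9 CPM (56 UMIs) and 7.95 CPM (31 UMIs), 2.00-fold lower (1.27 to 3.21), and just missed the fold once 0.5 UMIs were added to both counts (log2 ratio -0.99). The largest count of Cd36 in 1 cell was 15 UMIs in control and 12 in OTM. Plin2 was at 269 CPM (947 UMIs) and 212 CPM (827 UMIs), a ratio of 0.788 (0.717 to 0.866). Of the 3 genes, only Plin2 was found in a large share of cells, 37.3% of control and 30.5% of OTM cells after thinning, beside 30.3% and 22.3% of neutrophil-like cells. Unthinned, it was 56.2% and 65.2%, the reverse order, so no order is read from these shares.

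Monocyte-like cells of each library were put in order of their Apoe level and cut into 3 groups of equal size, to see how the other genes varied among cells of 1 library. In the OTM library Apoe was at 452, 4244 and 12786 CPM in these groups, and in the control library at 0, 363 and 3352 CPM. The lowest OTM group was at about the level of OTM neutrophil-like cells (465 CPM). Median depths of the OTM groups were 7222, 7407 and 7214 UMIs, so depth did not follow Apoe there. Those of the control groups were 4062, 4382 and 3746 UMIs. Of the 794 control cells 308 had no Apoe UMI, more than the 265 of the lowest group. The cut between the lowest and the middle control group was therefore partly arbitrary.

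In the OTM library Apoc1 was at 128, 244 and 284 CPM from the lowest to the highest group, and Fabp7 was at 21.5, 50.8 and 84.2 CPM. Fabp5 went the other way, with 96.9, 85.9 and 39.7 CPM, and Plin2 was at 256, 200 and 180 CPM. Saa3 was at 8055, 13370 and 16160 CPM. The intervals of the lowest and the highest group did not overlap for any of these genes, while those of the middle and the highest overlapped for Apoc1 and Plin2 and those of the lowest and the middle for Fabp5. Cells with the most Apoe thus held more Apoc1, Fabp7 and Saa3 and less Fabp5 and Plin2 than those with the least.

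In the control library Apoc1 was at 18.1, 24.7 and 73.6 CPM, while Fabp5 was at 165, 189 and 206 CPM with overlapping intervals, so the lower Fabp5 level of OTM cells with the most Apoe was not seen among control cells. Plin2 was at 286, 269 and 252 CPM with overlapping intervals. Saa3 was at 570, 487 and 751 CPM, far below its OTM levels and lowest in the middle group. Fabp7 had 22 UMIs in all control groups, too few for an order. Fabp4 was at 6.03, 6.95 and 76.4 CPM, and 81 of its 97 UMIs were in the highest group, which held the cell with 51. In single cells the relations were weak. Over 554 OTM cells thinned to 2000 UMIs, Spearman's rho of Apoe was 0.19 with Apoc1, 0.16 with Fabp7 and -0.09 with Fabp5, all from cells of 1 library.

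**Figure D3:**
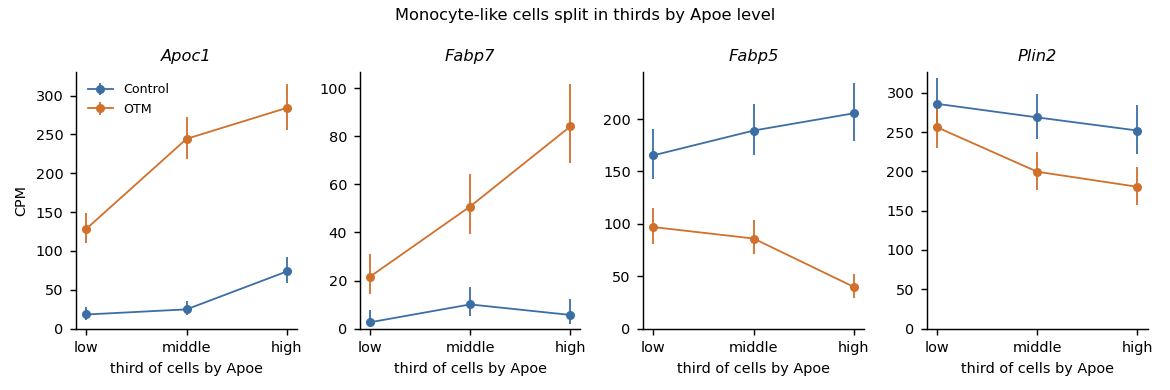
Levels (CPM) of Apoc1, Fabp7, Fabp5 and Plin2 in monocyte-like cells cut into 3 groups by Apoe level, with 95% counting intervals, for control (blue) and OTM (orange). In OTM, Apoc1 and Fabp7 climb from 128 to 284 and from 21.5 to 84.2 CPM while Fabp5 drops from 96.9 to 39.7 CPM.

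Cycling monocyte-like cells, set apart by Mki67, Top2a and other genes of cell division, had far less Apoe than the other monocyte-like cells. The level was 47.2 CPM (61 UMIs) in control and 507 CPM (401 UMIs) in OTM, a ratio of 10.7 (8.19 to 14.3). Noncycling monocyte-like cells were 24.3-fold above them in the control library (18.8 to 31.8) and 11.3-fold above them in the OTM library (10.3 to 12.5). The control value was below that of control neutrophil-like cells (211 CPM), and the intervals of OTM cycling monocyte-like and OTM neutrophil-like cells overlapped. Among the OTM cycling cells the median cell had 2 Apoe UMIs and the highest had 57, and the top 4 of 71 cells held 44.9% of the UMIs. Erythroid markers (7 and 4 of 7 with a UMI) summed to 2225 CPM in control and 79.6 CPM in OTM cycling cells. Neutrophil markers (13 of 13 in both) summed to 12278 and 20650 CPM, granulocyte progenitor markers (6 of 6 in both) to 377 and 555 CPM, and B cell markers (5 and 6 of 7) to 3.87 and 68.2 CPM. The part of these markers in the result was not tested.

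Fabp5 was highest among monocyte classes in the cycling cells, with 251 CPM (324 UMIs) in control and 236 CPM (187 UMIs) in OTM, a ratio of 0.943 (0.784 to 1.13). The lower Fabp5 level of OTM monocyte-like cells was thus not measured in cycling cells at full depth. In 1 random draw with each cell thinned to 2000 UMIs the ratio was 0.625. In another draw to that depth, 40.9% of control and 38.0% of OTM cycling cells had a Fabp5 UMI. The mean CPM of single cycling cells was 240 in control and 224 in OTM, so no fall is read from the thinned ratio. Cycling cells were 1.34-fold above noncycling monocyte-like cells in control (1.17 to 1.54) and 3.16-fold above them in OTM (2.62 to 3.82). Plin2 was at 261 and 260 CPM, a ratio of 0.996 (0.833 to 1.19). Apoc1 had 1 UMI in control and 28 in OTM, and Fabp7 had 6 and 22, both under the 50 UMIs needed for a count. Of 3 genes with at least 50 UMIs, 1 was 2-fold higher and none lower, beside 2.74% and 1.73% of 3871 genes.

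In cells with high MHC class II, Apoe was at 2464 CPM (3329 UMIs) in control and 6193 CPM (5513 UMIs) in OTM, a ratio of 2.51 (2.41 to 2.62). Apoc1 was at 11.8 CPM (16 UMIs) and 87.6 CPM (78 UMIs). Of 7 genes with at least 50 UMIs, 4 were 2-fold higher (Apoe, Apoc1, Fabp4 and Cd36) and 1 was 2-fold lower (Lpl), beside 3.28% and 2.51% of 3541 genes. Fabp5 did not differ beyond counting error, with 142 and 143 CPM (ratio 1.00, 0.796 to 1.26), and Fabp7 had only 5 and 4 UMIs.

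The OTM cluster was mixed. Of its 148 cells, 16 lay among C1q macrophage-like and 19 among nonclassical monocyte-like cells in the joint clusters, against 3 and 5 of the 292 control cells. In the MHC class II-high cells of the joint clusters (242 control and 120 OTM) Apoe was at 2567 and 4293 CPM, a ratio of 1.67, which is no longer 2-fold. Fabp4 was there at 14.3 and 14.7 CPM and Cd36 at 15.2 and 13.5 CPM, so their higher levels in OTM were not found in the joint clusters. Apoc1 was at 13.4 CPM (15 UMIs) and 69.9 CPM (57 UMIs), higher in OTM in these cells too. In the OTM cluster taken alone, C1q macrophage markers summed to 1266 CPM, against 502 CPM in control, and platelet markers to 111 CPM, against 11.8 CPM, and their part in these results was not tested.

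Nonclassical monocyte-like cells were named from 11 markers, Ace, Treml4 and Spn among them. These markers summed to 4158 CPM in control and 4012 CPM in OTM, no higher than in neutrophil-like cells (4433 and 4014 CPM). In monocyte-like cells they summed to 828 and 463 CPM. The nonclassical monocyte-like class held the highest Cd36 of all classes, with 129 CPM (87 UMIs) in control and 113 CPM (35 UMIs) in OTM. The ratio of Cd36 was 0.871 (0.571 to 1.30). Fabp4 was at 378 CPM (254 UMIs) and 142 CPM (44 UMIs), which is 2.67-fold lower in OTM (1.93 to 3.76). Apoe was at 2591 and 4932 CPM, a ratio of 1.90 (1.78 to 2.04), short of 2-fold. The class drew on different cells in each library. Of the 156 control cells, 94 came from the nonclassical monocyte-like cluster of that library and 44 from neutrophil-like clusters, while of the 62 OTM cells 38 came from neutrophil-like clusters and 19 from the MHC class II-high cluster. Neutrophil markers (13 of 13 with a UMI) summed to 135895 and 132753 CPM in these cells, against 355557 and 315868 CPM in neutrophil-like cells and 17986 and 14509 CPM in monocyte-like cells, and their part in the result was not tested. Of 5 genes with at least 50 UMIs, none was 2-fold higher and 1 (Fabp4) was 2-fold lower, beside 2.62% and 3.03% of 1950 genes. Fabp5, at 110 and 54.7 CPM, was 2.01-fold lower (1.18 to 3.64) but did not pass with 0.5 UMIs added.

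C1q macrophage-like cells, the resident type with Vcam1 and Mertk among its markers, had the highest Apoe in both libraries, 11260 CPM (interval 10842 to 11691) in 52 control cells and 13001 CPM (12346 to 13682) in 17 OTM cells. In the control cells Fabp4 was at 544 CPM (132 UMIs), Fabp5 at 577 CPM (140 UMIs) and Lpl at 243 CPM (59 UMIs), and for Fabp5 and Lpl this was the highest of the control classes. The Fabp4 value rested on few cells, since the cell described above holds 51 of the 132 UMIs. With the control library clustered alone, Fabp4 was at 347 CPM (269 to 441) in C1q macrophage-like and 436 CPM (370 to 509) in nonclassical monocyte-like cells, the reverse order, with overlapping intervals. In the 17 OTM cells Fabp4 had 1 UMI, Lpl had 2 and Fabp5 had 36 (318 CPM). Since 17 cells are below the 50 set for a comparison, these values are given side by side. Apoc1 had only 2 UMIs in control and 6 in OTM.

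In neutrophil-like cells of the joint clusters Apoe was at 211 CPM (532 UMIs) in control and 465 CPM (518 UMIs) in OTM, a ratio of 2.21 (1.95 to 2.50). Most of it was in few cells, since the top 5% held 66.5% and 69.3% of the UMIs and the median cell had 0. Of 4 genes with at least 50 UMIs, 1 was 2-fold higher (Apoe) and 1 was 2-fold lower (Fabp4, with 51 and 3 UMIs), beside 3.22% and 9.47% of 3538 genes. Fabp5 had a ratio of 0.939 (0.733 to 1.20) and Plin2 of 0.837 (0.708 to 0.985). The neutrophil-like clusters of each library alone, which include the OTM cluster with lymphoid markers, gave 322.9 and 1574 CPM for Apoe and 2 genes higher and 2 lower of 7, beside 5.06% and 3.77% of 4567 genes. Granulocyte progenitor-like cells had the lowest OTM Apoe level, 138 CPM, and 83.7 CPM in control.

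Over all kept cells Apoe was at 1143 and 4020 CPM (ratio 3.52, 3.45 to 3.59), Apoc1 at 16.5 and 131 CPM and Fabp7 at 3.54 and 31.8 CPM, while Fabp4 was at 46.8 and 11.6 CPM and Lpl at 25.4 and 8.60 CPM. These 3 genes higher and 2 lower stand beside 2.15% and 5.05% of 8599 genes. Fabp5 had a ratio of 0.651 (0.597 to 0.709). In such sums the share of each class and the level within it cannot be told apart.

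**Figure D4:**
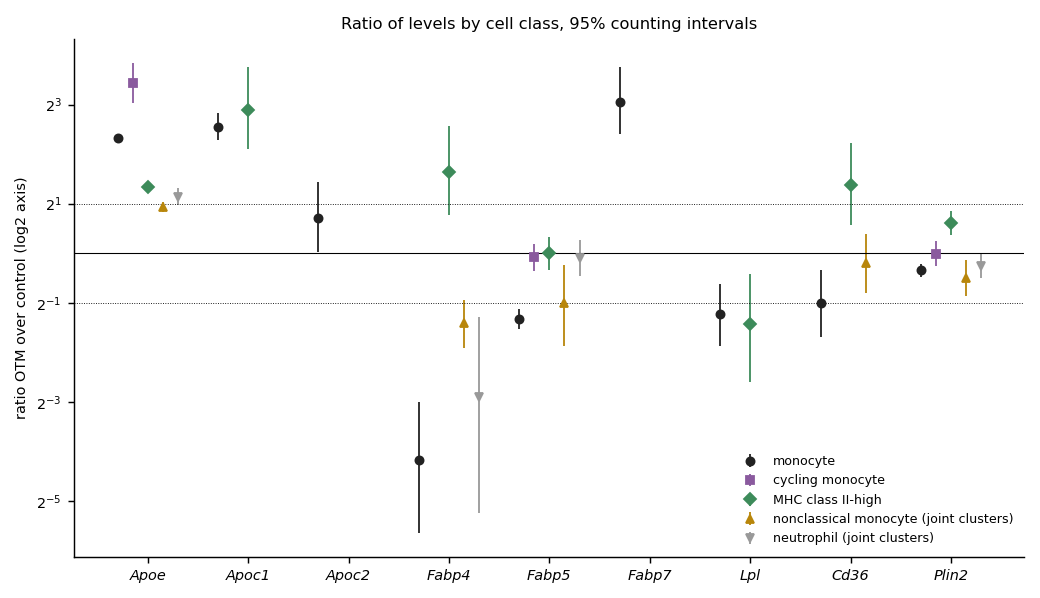
Ratio of OTM over control (log2 axis) with 95% counting intervals for each gene with at least 50 UMIs in 5 cell classes, dotted lines at 2-fold. Apoe is above 1 in every class drawn (1.90 to 10.7), while Fabp5 is at 0.401 in monocyte-like and 0.497 in nonclassical monocyte-like cells and near 1 in the other 3 classes.

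The order of classes was read within each library. For Apoe in control it was C1q macrophage-like, nonclassical monocyte-like, MHC class II-high, monocyte-like, neutrophil-like, granulocyte progenitor-like and cycling monocyte-like cells, and the intervals of the second and the third, and of the last pair, overlapped. In OTM the order was C1q macrophage-like, MHC class II-high, monocyte-like, nonclassical monocyte-like, cycling monocyte-like, neutrophil-like and granulocyte progenitor-like cells. Intervals overlapped only between cycling monocyte-like and neutrophil-like cells. Because some classes are from joint clusters and others are not, they share cells. In OTM, 16 of 17 C1q macrophage-like and 19 of 62 nonclassical monocyte-like cells were also counted as MHC class II-high. The OTM Apoe level of MHC class II-high cells from the joint clusters, given above, lay below those of monocyte-like and nonclassical monocyte-like cells. Monocyte-like cells thus stood below nonclassical monocyte-like cells in control (1144 against 2591 CPM) and above them in OTM (5739 against 4932 CPM).

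For Apoc1 and Fabp7 monocyte-like cells ranked at the top in both libraries. In OTM their Apoc1 level (219 CPM, 204 to 234) did not overlap that of the next class, MHC class II-high cells (87.6 CPM, 69.3 to 109), and their Fabp7 level (51.8 CPM, 44.9 to 59.5) did not overlap that of cycling monocyte-like cells (27.8 CPM, 17.4 to 42.1). In control the Apoc1 interval of monocyte-like cells (31.15 to 44.2 CPM) overlapped that of the next class, nonclassical monocyte-like cells (11.38 to 34.92 CPM). In control the intervals of all 7 classes overlapped for Fabp7. For Fabp5 monocyte-like cells went from the third place in control to the fifth in OTM. Among the 7 classes, Plin2 lay between 211 and 446 CPM in control and between 181 and 450 CPM in OTM with granulocyte progenitor-like cells (55.8 and 151 CPM) left aside.

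Likeness of pattern was taken as Pearson's r of log2 levels (10 CPM added) over the 20 clusters of both libraries, among 2018 genes with a mean of at least 50 CPM. Clusters of 1 library share its preparation and they differ in depth, so r is a description. Most like Apoe were Lgmn (r = 0.92), Zfp36l1 (0.90), Pim3 (0.87), Icam1 (0.87) and Bcl2a1d (0.87). Most like Fabp7 were Ms4a8a (0.81), Vcan (0.80), F10 (0.79), Pycard (0.78) and Hebp1 (0.77). Most like Fabp5 were Creg1 (0.91), Akap13 (0.84), Cstb (0.83), Ptms (0.83) and Zfp36 (0.81). Most like Fabp4 were Crlf3 (0.78), Malat1 (0.78), Eif4a2 (0.72), Gngt2 (0.69) and Rgs1 (0.68).

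Other genes of lipid handling came from 7 fixed lists with 119 genes, of which 56 had at least 50 UMIs in monocyte-like cells. Of these 56, 1 was 2-fold higher in OTM and 4 were 2-fold lower, beside 2.66% and 5.62% of 6349 genes. The median log2 ratio was -0.10 beside -0.13 over all genes. The counts are near the shares over all genes, so the genes named below are given as a description. With TMM scaling the split was 3 higher and 3 lower. Dgat2, which makes triglyceride, was at 39.0 and 115 CPM, 2.95-fold higher (2.43 to 3.60). G0s2, an inhibitor of triglyceride lipase, was at 460 and 145 CPM, 3.16-fold lower (2.87 to 3.49). Cpt1a, which admits fatty acids to mitochondria, was at 39.0 and 16.9 CPM and 2.30-fold lower. Srebf2, the regulator of sterol synthesis, was 2.71-fold lower (1.53 to 4.98) at 12.5 and 4.62 CPM.

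By list, none of 12 genes of sterol efflux and LXR response passed 2-fold (median log2 ratio -0.01). Among them Npc2, which moves cholesterol out of lysosomes, was at 2034 and 1929 CPM, Soat1, which esterifies cholesterol for storage, at 108 and 105 CPM, and the cholesterol exporter Abca1 at 43.8 and 64.9 CPM (ratio 1.48, 1.21 to 1.82). Among genes of lipid uptake and fatty acid activation, the scavenger receptor Msr1 had a ratio of 1.84 (1.62 to 2.10), beside 1.22 for Scarb2 and 0.780 for Lrp1. Of 10 lipid droplet genes, 1 was higher and 1 lower (median 0.14), and Hilpda and Bscl2 had ratios of 1.24 and 1.25.

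Of 15 genes of PPAR and fatty acid oxidation, 1 was lower (Cpt1a, median -0.24), and the 3 largest, Ucp2, Etfb and Etfa, had ratios of 0.824, 0.810 and 0.805. Of 6 genes of sterol synthesis, 1 was lower (Srebf2, median -0.26), and Insig1, Fdps and Mvd had ratios of 0.896, 0.872 and 0.924. Among other apolipoproteins only Apobr reached 50 UMIs (19.6 and 18.5 CPM), and Apod had 4 and 1 UMIs. Among other fatty acid-binding proteins none did, with 12 and 4 UMIs for Fabp3, 0 and 1 for Crabp2 and 0 in both for Fabp1.

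**Figure D5:**
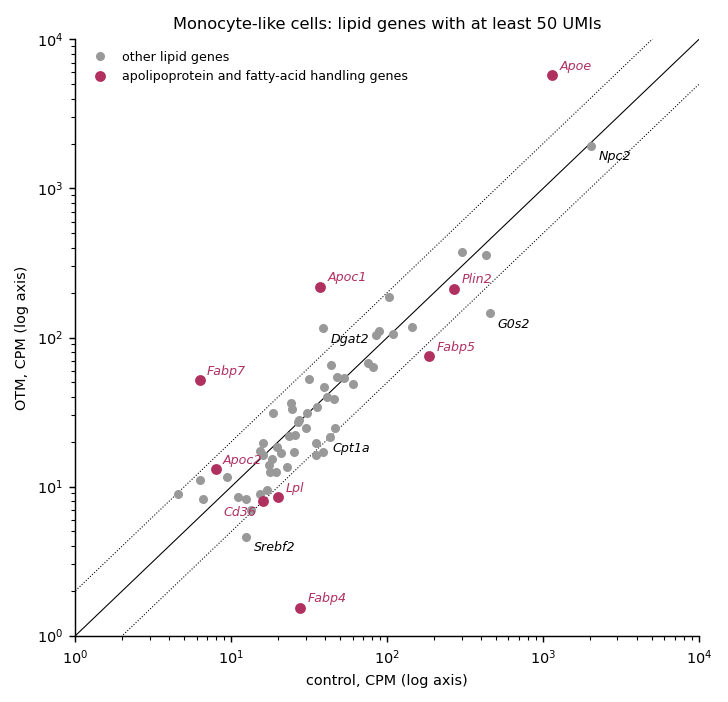
Level in OTM against level in control monocyte-like cells (CPM, both axes log) for the 9 genes (red) and the 56 other lipid genes with at least 50 UMIs (grey), with a solid line at equality and dotted lines at 2-fold. Apoe, Apoc1 and Fabp7 lie above the upper dotted line, and among the grey points only Dgat2 does.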

How the data were processed

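Per the labels and the methods, the authors sorted F4/80+CD11b+ cells, made 10x Genomics 3′ libraries, and, per the submitters' processing notes, used Cell Ranger 3.0.0, Seurat 3.0.0 and build mm10. They deposited raw UMI counts per gene and barcode, without normalization. From these counts, barcodes were kept when genes detected reached 200 for each 1000 UMIs and mitochondrial UMIs did not exceed 5%, a literal reading of the methods, and genes in more than 3 cells were clustered with Seurat 5.3.0 (12 components for control, 8 for OTM, resolution 0.6, seed 42), without the 9 genes and 7 lipid lists. A cluster took the marker list with the highest mean z-score with at least 3 markers at 50 CPM, unless its 10 leading genes held more of another list. Doublets were kept. Ratios have exact conditional binomial and levels exact Poisson 95% intervals, shares Clopper-Pearson intervals. A 2-fold count needed 50 UMIs over both libraries, with 0.5 UMIs added before log2. The depth was 10728381 kept UMIs in control and 7787159 in OTM. With 1 library per group no test was made. Sequences are from RefSeq (GRCm38.p6) and gene positions from GENCODE vM21. Named genes are the 9, the other lipid genes past 2-fold or among the 3 largest of a list, the 5 most alike over clusters and the markers, beside flanking genes and Saa3, named after their values were seen. The 9 genes and the lists were chosen with earlier results of these data known. Thresholds for naming clusters and the use of joint clusters for 3 classes were set after the data were seen. Calculations were checked on simulated data, with Python 3.11.15, scipy 1.17.1 and R 4.3.3. A lipid gene past 2-fold and a marker are not reported here.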

Additional observations from a re-analysis of the deposited data

How the results depend on the processing

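The 3 genes higher in monocyte-like cells (Apoe, Apoc1 and Fabp7 in the main setting) stayed 3 under 16 of 17 alternatives and were 4 at a fold of 1.5, at which 7.61% of all genes were higher and 17.2% lower. Over the 14 alternatives that give a ratio, Apoe ranged from 4.6 to 5.65, Apoc1 from 5.17 to 9.19, Fabp7 from 7.45 to 16.4 and Fabp5 from 0.226 to 0.452. The 3 genes lower were 1 with cells thinned to 2000 UMIs and 1 at a minimum of 200 UMIs, both settings that leave fewer UMIs or genes, and between 2 and 4 elsewhere. Leaving out the cell with the most UMIs of each gene, chosen after seeing the data, gave 3 higher and 4 lower. Fabp4 ranged from 0.0516 to 0.593 (the last with both libraries clustered together), Lpl from 0.297 to 0.743 and Cd36 from 0.125 to 0.567.

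In MHC class II-high cells, cycling monocyte-like cells and all cells together, the 8 higher counts were 5 at resolution 0.3, with both libraries clustered together, with thinned cells and at 200 UMIs, and the 3 lower counts were 5 at a fold of 1.5. Fabp4 in MHC class II-high cells turned to a log2 ratio of -0.50 at resolution 0.3, and Cd36 to -0.15 with both libraries together. For the joint nonclassical monocyte-like and neutrophil-like clusters, the 1 higher was 0 with mean CPM of single cells and 2 at a fold of 1.5, and the 2 lower were 1 without Scrublet doublets (103 control and 12 OTM cells called), 1 with thinned cells, 1 at 200 UMIs and 4 at a minimum of 1 UMI. These classes were not rebuilt under other clusterings, and the filter on S100a8 and S100a9 was not run on them because under 50 cells remained. Apoe in OTM noncycling over cycling monocyte-like cells was 9.82 with both libraries together. With the control library clustered alone, Fabp4 in its 104 nonclassical monocyte-like cells was 15.8-fold above monocyte-like cells. These 104 cells are not the joint class used above. The ratio was 9.18 at resolution 0.3, 5.78 with 20 components, 38.8 when clustered with all genes and 41.7 with both libraries together. Beyond the settings that leave fewer UMIs, the cause was not tested.

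The share of monocyte-like cells with an Apoe UMI was 41.8% (control) and 76.9% (OTM) at 1000 UMIs and 61.2% and 92.1% unthinned. For Fabp7 it was 5.42% (OTM) at 1000 UMIs and 2.64% and 22.7% unthinned. The other lipid genes at a fold of 1.5 were 7 higher and 13 lower, beside 7.61% and 17.2% of all genes. With TMM scaling, which multiplied monocyte-like ratios by a constant, 3 were higher at 2-fold. Of 455 values of single genes under alternatives, 387 stayed within the main interval, 66 moved beyond it and 2 changed sign. No paired analysis was possible because each group holds 1 library. All intervals cover counting error only, and animals, sorting and library preparation cannot be told apart from force.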
